A study of Mus musculus with 2 samples.

Results

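The messages examined here encode 9 RNA-binding proteins that set how long other messenger RNAs last: the zinc finger proteins of Zfp36, Zfp36l1 and Zfp36l2, and the products of Khsrp, Hnrnpd, Elavl1, Tia1, Tial1 and Ythdf2. They were chosen by gene symbol, with no threshold on a measured value, although earlier results of these data were known. A gene was represented by the row of the deposited value table that the platform's annotation gives to its symbol alone. Of the 9 genes, 8 had such a row, 1 row each, out of 19776 named genes in the table; for Ythdf2 no row was found under its symbol and no value is given. All 8 passed a filter on low levels (a mean signal over both arrays of at least 2.53, the median over all rows), which 14680 named genes passed.

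The arrays came from intestinal stem cells of the small intestine of 8-week-old mice. One array held circPan3+/+ cells (the wild-type array) and the other circPan3-/- cells (the knockout array), which lack circPan3, a circle of RNA that takes its name from Pan3. Both groups carried Lgr5GFP-CreERT2, which puts green fluorescent protein and an inducible Cre recombinase under the control of the stem cell gene Lgr5, and GFP-positive cells were sorted from crypts. The sources used here do not say whether an array holds cells of 1 mouse or of several. Since each genotype has 1 array, no spread is at hand to set a difference against and no test was made, so each value describes these 2 arrays and not the genotypes.

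AU-rich elements are stretches of adenine and uracil in the tail of many short-lived messages, such as those of cytokines, growth regulators and early response genes. Zinc finger proteins of the Zfp36 family bind them and recruit deadenylases, which remove the poly(A) tail, while KSRP, the product of Khsrp, brings in the exosome and other decay enzymes. HuR, the product of Elavl1, binds many of the same elements and protects the message. In the intestinal epithelium such proteins are known to take part in the control of proliferation, inflammation and repair. The question taken from the rule was whether genes of decay-promoting and of stabilising factors differed between the 2 arrays in different ways.

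All values are RMA signals on a log2 scale, all differences are circPan3-/- minus circPan3+/+, and a pair of signals gives the wild-type array first. The named genes as a whole lay higher on the knockout array, with a median difference of 0.36 and quartiles of 0.06 and 0.66, and 78.2% of them were higher by any amount. This shift grew with level, from a median of 0.19 in the dimmest to 0.53 in the brightest of 8 equal groups of genes ordered by mean level (eighths of level). It was 0.27 in negative control rows and 0.57 in positive control rows, and whether it lies in the RNA or in the processing of the arrays was not tested. The 95th percentile of the 5222 negative control rows was 5.06 for the wild-type array and 5.56 for the knockout array, called the control limits here. Counts past 2-fold use the deposited difference, a log2 difference of at least 1. A count with the control limits first raises the dimmer value to its limit where it lies under it. It keeps a gene only if the values then still differ 2-fold, and leaves out genes under both limits. Shares of named genes beside such counts are over all named genes past the filter, including those under both limits. Such a share is lower than it would be over the genes that can be counted, which was not computed. Exact repeats of a value across rows made up 69.1% of the wild-type column and 4.20% of the knockout column, and how alike the processing of the 2 arrays was is not known. Of 9 crypt base stem cell markers with a row, all past the filter, Lgr5 measured 10.91 on the wild-type array and 7.02 on the knockout array. Olfm4 measured 11.53 and 10.28. These were the 2 markers at least 2-fold lower, against 2.81% of named genes. The other 7 were higher by any amount, against 78.2%, and Slc12a2, the furthest that way, measured 5.47 and 8.39. At least 2-fold higher were 5 of the 9, against 9.67% of named genes, and 3 with the control limits, against 3.68%.

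The zinc finger genes were higher on the circPan3-/- array, Zfp36 by the most. Zfp36, which encodes tristetraprolin, the founding member of the family and itself an early response gene, measured 5.71 on the wild-type array and 7.01 on the knockout array. The difference was 1.30, or 2.47-fold, the largest among the 8 genes, with both values above the control limits. Of the 14680 named genes, 647 (4.41%) had a larger difference, and among the genes of its own eighth of mean level the share was 8.23%. Zfp36l1, a family member that acts on growth and differentiation messages, had 5.98 and 6.93, a difference of 0.95 or 1.93-fold. Zfp36l2, the third member, had 6.96 and 7.84, a difference of 0.88 or 1.84-fold. All 6 values of the family lay above the control limits, but Zfp36l1 and Zfp36l2 stayed short of 2-fold. In the eighth of genes with like level, 19.5% exceeded the difference of Zfp36l1 and 23.3% that of Zfp36l2.

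**Figure D1:**
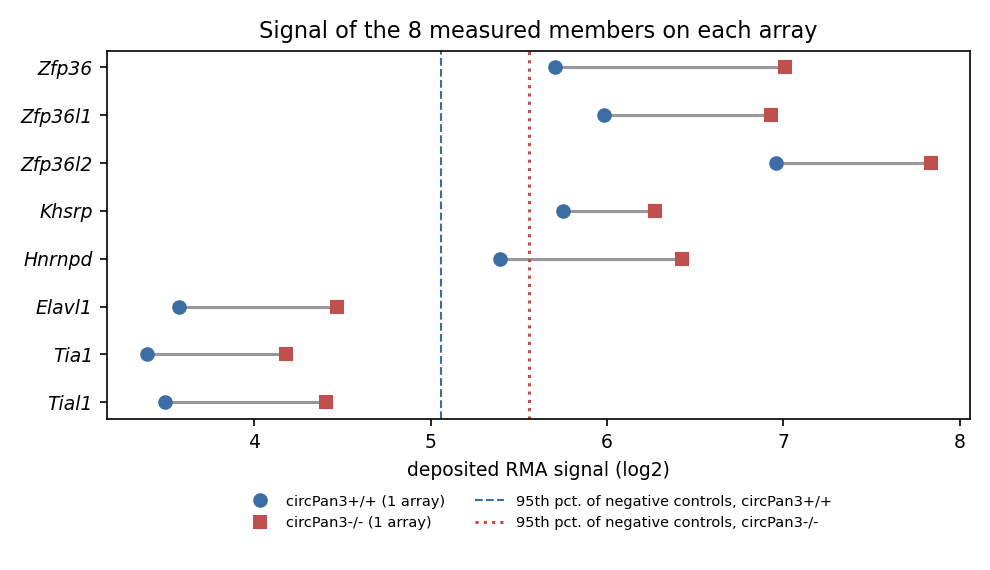
Deposited RMA signal (log2, x axis) of the 8 genes with a row, with a circle for the circPan3+/+ array, a square for the circPan3-/- array, and the control limits (the 95th percentile of the negative control rows) as vertical lines at 5.06 and 5.56. Each square lies to the right of its circle, and Elavl1, Tia1 and Tial1 lie left of both limits.

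Because, of the 5 genes above the control limits, Zfp36 stood furthest apart, Hnrnpd second and Khsrp least, the sequences before their starts are shown from RefSeq (GRCm38.p6), on the gene's strand. These are the 250 bases upstream of the annotated start of Zfp36 (chr7:28379229-28379478, minus strand), Hnrnpd (chr5:99978939-99979188, minus strand) and Khsrp (chr17:57031508-57031757, minus strand). Capitals mark matches, on either strand, to the searched motifs.

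Zfp36: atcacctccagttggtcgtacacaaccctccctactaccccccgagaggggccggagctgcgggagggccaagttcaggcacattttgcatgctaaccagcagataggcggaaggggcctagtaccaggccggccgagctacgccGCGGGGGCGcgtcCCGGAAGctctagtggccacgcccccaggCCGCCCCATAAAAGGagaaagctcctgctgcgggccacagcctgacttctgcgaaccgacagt

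Hnrnpd: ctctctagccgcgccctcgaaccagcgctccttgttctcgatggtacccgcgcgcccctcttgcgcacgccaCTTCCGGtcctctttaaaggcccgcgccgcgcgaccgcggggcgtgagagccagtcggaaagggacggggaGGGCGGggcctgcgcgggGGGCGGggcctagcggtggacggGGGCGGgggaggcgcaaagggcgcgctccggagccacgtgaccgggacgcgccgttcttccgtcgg

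Khsrp: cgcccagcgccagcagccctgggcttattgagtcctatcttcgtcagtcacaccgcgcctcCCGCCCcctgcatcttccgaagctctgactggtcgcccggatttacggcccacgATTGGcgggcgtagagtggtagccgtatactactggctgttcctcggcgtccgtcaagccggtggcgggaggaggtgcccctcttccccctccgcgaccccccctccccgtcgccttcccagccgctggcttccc

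The motifs searched were those of EGR proteins (GCGGGGGCG), CREB (TGACGTCA), AP-1 (TGANTCA), ETS proteins (CCGGAAG), YY1 (GCCATNTT) and NRF1 (GCATGCGC), the GC box (GGGCGG), the CCAAT box (CCAAT), the TATA box (TATAAA) and the CArG box of serum response factor. The Zfp36 window held an EGR motif 105 to 97 bases before the start, an ETS motif at 92 to 86, and a CArG box at 58 to 49 that shares 1 base with a GC box at 63 to 58. Among 32851 windows of the same length, 2.57% held the EGR motif, 6.91% the ETS motif and 1.47% the CArG box. Of the 8 genes with a window (Zfp36l2 has no entry in the table), Zfp36 alone held the EGR motif or the CArG box. Zfp36l1 alone held an AP-1 motif, found in 6.75% of all windows, and a TATA box, found in 12.4%. The Zfp36 window was 64.8% G or C, against a median of 52.4% over all windows, and the shares given here were not matched for this. The Hnrnpd window held 3 GC boxes and an ETS motif, and the Khsrp window 1 GC box and 1 CCAAT box, which stand in 32.7% and 33.8% of all windows. A match describes the letters only, and binding was not measured.

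Hnrnpd was the second gene past 2-fold and Khsrp the gene least apart. Hnrnpd encodes AUF1, an AU-rich element binder whose isoforms can destabilise or stabilise messages. It measured 5.40 on the wild-type array and 6.43 on the knockout array, a difference of 1.03 or 2.04-fold, with both values above the control limits. Of the named genes, 8.86% had a larger difference, and 13.1% of those in its eighth of level. The table gives 1 value for the Hnrnpd transcript cluster, so its isoforms were not read apart. Khsrp had 5.75 and 6.27, a difference of 0.52 or 1.44-fold, also above the limits on both arrays. That difference lay 0.17 above the median of named genes. It was close to the median of 0.49 in its own eighth of level, where 47.5% of genes had a larger one.

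The stabiliser gene and the 2 translational silencer genes were measured at levels within the range of the negative controls. Elavl1 measured 3.57 on the wild-type array and 4.47 on the knockout array, a difference of 0.90. Tia1 and Tial1 encode related proteins that bind AU-rich elements, hold back translation and gather in stress granules. Tia1 had 3.39 and 4.18, a difference of 0.79, and Tial1 had 3.49 and 4.41, a difference of 0.91. All 6 values lay under the control limits, so no fold is given for these genes. The circPan3+/+ value of Tia1 stood in 209 rows of the table and that of Tial1 in 639, while the other 6 genes had values found in no other row.

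As a set, the 8 genes were higher on the circPan3-/- array in 8 of 8 cases, against 78.2% of named genes, from 0.52 to 1.30, with a median of 0.91 against 0.36 over all named genes. All but Khsrp lay above 0.66, the upper quartile of named genes. At least 2-fold higher were 2 of the 8, Zfp36 and Hnrnpd, against 9.67% of named genes, and 0 were at least 2-fold lower, against 2.81%. Both remained past 2-fold with the control limits, as did 3.68% of named genes in the higher direction. At a threshold of 1.5-fold, the deposited difference of 7 of 8 was higher, against 30.2% of named genes. With the control limits, which leave out Elavl1, Tia1 and Tial1, it was 4 (Zfp36, Zfp36l1, Zfp36l2 and Hnrnpd), against 12.2%. The shares of 12.2% and 3.68% include genes under both limits, which can never count. They are not matched to members above the limits, so no excess is read from them. With 8 genes a single gene moves such a share by much, and no test of the share was made.

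The count past 2-fold depended on the shift of named genes. After subtraction of the median, 0 of the 8 were at least 2-fold apart, against 3.85% of named genes higher and 5.03% lower, and 3 of 8 (Zfp36, Zfp36l1 and Hnrnpd) were at least 1.5-fold higher, against 11.5%. Zfp36 then stood at 0.95, Hnrnpd at 0.67 and Khsrp at 0.17. After loess on level the 8 differences ran from 0.0040 for Khsrp to 0.77 for Zfp36, and all 8 lay above 0, against 49.6% of named genes. Of the 5 genes above the control limits, 1 then had a difference of at least the size of 1.5-fold, Zfp36. Over all named genes, which include genes under the limits, the share was 10.1%, and it was not counted for genes above both limits alone. Hnrnpd stood at 0.52, Zfp36l1 at 0.41 and Zfp36l2 at 0.35, and the 3 genes under both limits between 0.49 and 0.59, from which no fold is read. Zfp36 stood first and Khsrp last as deposited and after loess and quantile normalization. Centring keeps the deposited order by construction.

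**Figure D2:**
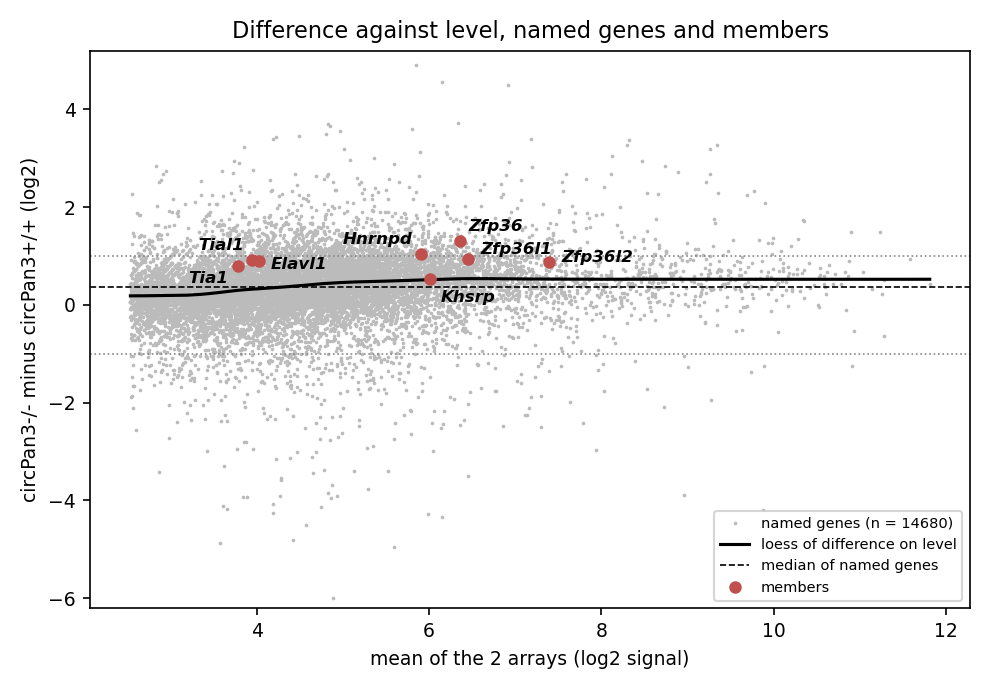
Difference (log2, y axis) against the mean of both arrays (log2 signal, x axis) for 14680 named genes in grey and the 8 members in red, with the median of named genes dashed, the loess curve solid and 2-fold dotted. Zfp36 at 1.30 and Hnrnpd at 1.03 lie past the upper dotted line, and Khsrp at 0.52 lies on the loess curve.

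**Figure D3:**
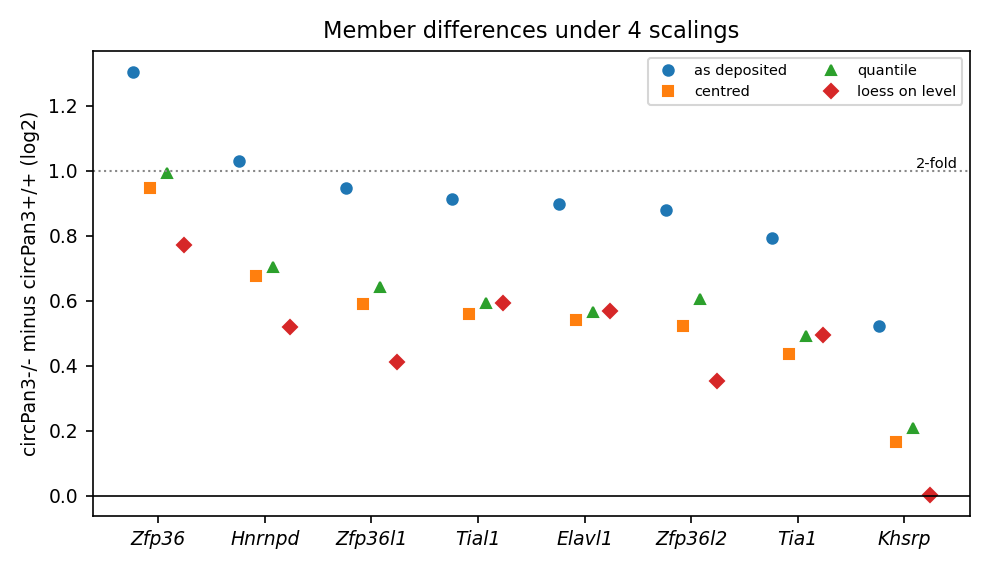
Difference of each of the 8 genes (log2, y axis) as deposited, after centring on the median of named genes, after quantile normalization and after loess on level. Only the deposited values of Zfp36 and Hnrnpd lie above the dotted 2-fold line.

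Decay-promoting and stabilising factors could not be compared above the control limits. The 4 measured decay-promoting genes (Khsrp, Zfp36, Zfp36l1 and Zfp36l2; Ythdf2, the m6A reader that recruits deadenylases, had no row) lay above the limits on both arrays, with a median of 0.91 and a range from 0.52 to 1.30. Hnrnpd, whose isoforms act either way, stood at 1.03, also above the limits. Elavl1, the single stabilising gene, lay under both limits, so its difference of 0.90 has no fold and is not set against the decay-promoting genes. The same holds for the silencer genes Tia1 and Tial1. Whether the classes differed between the 2 arrays in different ways was thus not measurable here.

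Other RNA-binding proteins of message stability had a deposited median above that of all named genes, 0.70 against 0.36, a gap that was not tested. After loess on level the median of this list was 0.18. Of 42 listed genes, 35 had a row and 31 of the 35 were higher by any amount, a share to be read against 78.2% of named genes. At least 2-fold higher were 7, against 9.67% of named genes, 1 was lower, against 2.81%, and 27 were neither. With the control limits 7 were higher, against 3.68% of named genes, and 0 lower, against 0.586%. Those 2 shares are over all named genes, also those under both limits. Hnrnpk, a poly(C)-binding protein gene, measured 6.31 on the wild-type array and 7.85 on the knockout array, a difference of 1.54. Ybx3, a cold shock domain protein gene, had 7.69 and 9.07, and Hnrnpdl, a relative of Hnrnpd, had 5.26 and 6.57, a difference of 1.31. The gene furthest the other way was Qk, which encodes the quaking RNA-binding protein, with 6.24 and 5.05, a difference of -1.19 or at least 1.61-fold to the control limit. After centring 2 were at least 2-fold higher, against 3.85% of named genes, and 1 lower, against 5.03%. Factors that write, read or erase m6A, a methyl mark on messages, were higher in 14 of 14 cases, against 78.2% of named genes. Their median was 0.70 as deposited and 0.23 after loess on level. Past 2-fold was 1 of the 14, against 9.67% of named genes. That gene was Ythdc1, a nuclear reader, with 6.04 and 7.10, and Alkbh5, a demethylase gene, stood lowest at 0.26. Ythdf1 and Ythdf3, relatives of Ythdf2 named after their values were seen, had 5.33 and 6.07, and 6.01 and 6.75, a difference of 0.73 each.

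Genes of the decay enzymes and granules that these proteins work with had deposited list medians between 0.54 and 0.77, against 0.91 for the members. After loess on level these 4 medians lay between 0.076 and 0.27, against 0.51 for the members. Neither gap was tested. Of 18 genes of deadenylases, their partner subunits and adaptors, 16 had a row and 15 were higher, against 78.2% of named genes. At least 2-fold higher were 4, against 9.67% of named genes, and 2 with the control limits, against 3.68%. At least 2-fold lower were 0, against 2.81%, and the median was 0.77. Cnot7, a catalytic subunit of the CCR4-NOT complex that Zfp36 proteins bind, had 4.65 and 5.82, a difference of 1.17 or at least 1.69-fold. Pan3 had 4.84 and 5.64, with a difference of 0.80; that row gives 1 value for the transcript cluster and does not check the loss of the circle. Genes of the exosome and of other 3' to 5' decay factors had a median of 0.68 over 16 genes. At least 2-fold higher were 2, against 9.67% of named genes, and 0 with the control limits, against 3.68%. The deposited difference was 1.06 for Dcps, the scavenger decapping enzyme gene, which allows at least 1.84-fold, and 1.01 for Exosc8, which was under both limits and has no fold. Exosc1 was lowest, at -0.07. Genes of decapping and of decay from the capped end had a median of 0.54 over 16 genes. Past 2-fold was 1 of the 16, against 9.67% of named genes. That gene was Xrn2, a nuclear exonuclease gene, at 1.02, and Lsm2 was lowest at -0.01. Stress granule genes had a median of 0.61 over 11, and 2 were past 2-fold as deposited, against 9.67% of named genes. With the control limits it was 1, against 3.68%, namely Pabpc1, the cytoplasmic poly(A)-binding protein gene, at 1.03. Usp10 had a difference of 1.13 but a wild-type value of 4.77, under its limit, which allows at least 1.79-fold. After centring, 0 genes of these 4 lists were at least 2-fold apart in either direction, against 3.85% of named genes higher and 5.03% lower.

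**Figure D4:**
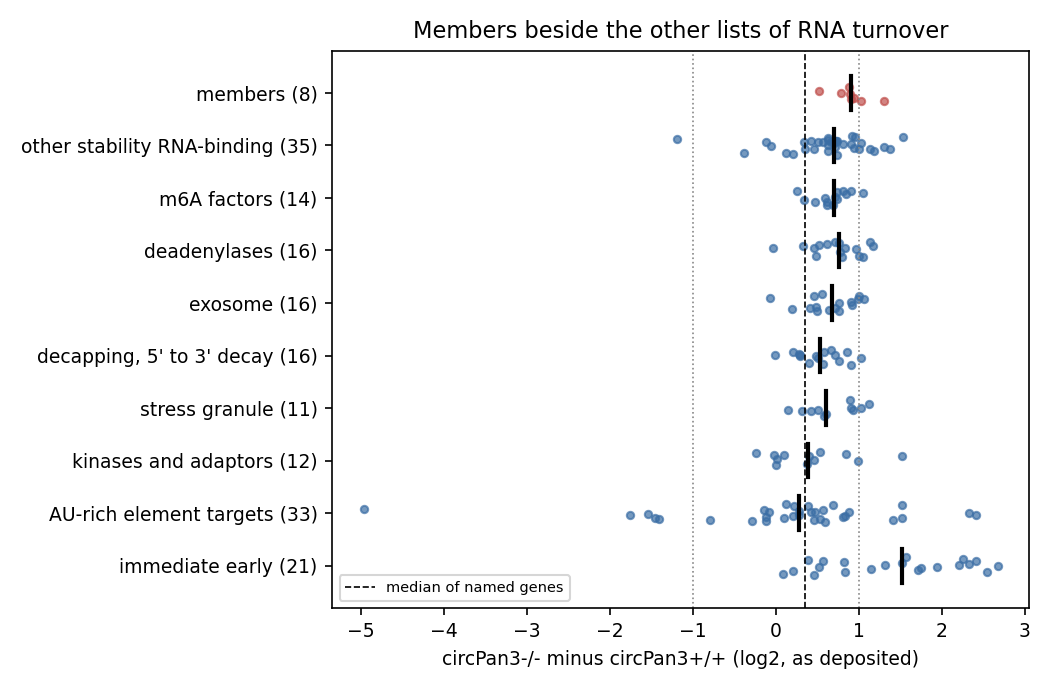
Difference (log2, x axis, as deposited) of each gene past the level filter for the 8 members in red and for 9 other lists in blue, with a black bar at each median, the median of named genes dashed and 2-fold dotted. The medians of the members and of the 6 lists under them lie between 0.54 and 0.91, that of the kinases and adaptors at 0.39, that of the immediate early genes at 1.52, and that of the AU-rich element targets at 0.28 with values on both sides.

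Genes whose products act on the members had a median near that of all named genes. Of 16 kinases, phosphatases and adaptors, 12 had a row and their median was 0.39; after loess it was -0.12. Mapkapk2 encodes MK2, the kinase that phosphorylates tristetraprolin and so curbs its activity. It measured 6.55 on the wild-type array and 6.32 on the knockout array, the lowest difference of the list at -0.23. Ywhae, a 14-3-3 adaptor gene, had 8.16 and 9.01. Dusp1, a phosphatase gene that restrains p38 signalling and is itself an AU-rich element target and an early response gene, had 6.94 and 8.46. Its difference of 1.52 was the 1 of 12 past 2-fold, against 9.67% of named genes.

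Messages with known AU-rich elements went both ways. Of 38 listed, 35 had a row and 33 passed the filter. At least 2-fold higher were 5, against 9.67% of named genes, 5 were lower, against 2.81%, and 23 were neither. The median of all 33 was 0.28. With the control limits 4 were higher, against 3.68% of named genes, and 3 lower, against 0.586%. Jun measured 6.82 on the wild-type array and 9.23 on the knockout array and Fos 6.38 and 8.71, differences of 2.41 and 2.33, and Nfkbiz, a regulator of NF-kappaB targets, stood at 1.52. At the other end were the chemokine genes Ccl2 with 8.07 and 3.11, Cxcl2 with 6.80 and 5.04, and Cxcl1 with 6.12 and 4.58, all 3 under the control limit in circPan3-/- cells. Their bounds were at least 5.71-fold, 2.37-fold and 1.48-fold. Tnf, the best known target of tristetraprolin and named after its values were seen, had 5.50 and 5.61, a difference of 0.10. The 6 targets that are also immediate early genes had a median of 1.18 with 3 at least 2-fold higher, and the other 27 a median of 0.22 with 2 higher and 5 lower. Il13ra1, a receptor chain gene at the centre of the study and on none of these lists, measured 11.97 and 7.78. No message's half-life was measured.

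Values of other lists stood beside those of Zfp36 and of the targets. Immediate early genes, to which Zfp36 also belongs by its known regulation, were higher in 21 of 21 cases, against 78.2% of named genes, with a median of 1.52. At least 2-fold higher were 13, against 9.67% of named genes, and also 13 with the control limits, against 3.68%. At least 2-fold lower were 0, against 2.81%, and 11 were 2-fold higher after centring, against 3.85%. Ccn1 had 6.25 and 8.93 and Fosb 5.79 and 8.34. The summed linear signal of that list was 1452 on the wild-type array and 4885 on the knockout array. The counts of cell type markers are to be read against 9.67% of named genes at least 2-fold higher and 2.81% lower. With the control limits these shares were 3.68% and 0.586%, over all named genes, also those under both limits. Myeloid markers were lower in 13 of 13 cases, 11 of them at least 2-fold as deposited and 4 with the control limits. Their median was -1.80, with a summed linear signal of 2471 against 1702. Most of both myeloid sums is Lyz2, which had 10.55 and 10.51 and is also on the Paneth list, so these sums say little of the other myeloid markers. Cd68 had 6.97 and 4.21, and Clec4n 6.82 and 2.32. Goblet cell markers were at least 2-fold higher in 9 of 9 cases, 8 with the control limits, with sums of 1248 and 6073, and Paneth cell markers in 5 of 6, also with the limits, with sums of 3085 and 7750. Enterocyte markers were at least 2-fold lower in 5 of 8, also with the limits, with sums of 3051 and 1829. Enteroendocrine markers were at least 2-fold higher in 5 of 7, 3 with the control limits, with sums of 158 and 411. Tuft cell markers were at least 2-fold higher in 3 of 6 cases as deposited, with sums of 85.4 and 112. With the control limits 0 of the 6 were 2-fold apart, and 5 of the 6 lay under both limits. Lymphoid markers (T, NK and innate lymphoid) were lower in 11 of 11 cases, 3 of them at least 2-fold and 1 with the control limits, with sums of 612 and 352. Endothelial markers were lower in 6 of 6 cases, 2 of them at least 2-fold and 1 with the control limits, with sums of 416 and 195. Mesenchymal markers went both ways, 2 of 8 at least 2-fold higher and 3 lower (1 and 2 with the control limits). Their sums were 841 and 401. Of 6 B cell and plasma cell markers 0 were 2-fold apart, with a median of -0.13 and sums of 572 and 692. Only 2 of the 6 were higher by any amount, Jchain with 8.02 and 8.57 and Xbp1 with 7.19 and 7.54. They are the brightest of that list and weigh most in its sums. Some marker values, such as 2.32 for Clec4n on the knockout array, lay under the control limits, so a signal above 0 does not show that a marker was detected. The part of these cell types and of the early response in the differences of the members and targets was not tested, and fewer cells of a type and less RNA per cell cannot be told apart.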

How the data were processed

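Total RNA of sorted intestinal stem cells was hybridised to 2 Affymetrix Clariom D mouse arrays, 1 per genotype. The authors ran Affymetrix Power Tools with RMA, per the submitters' processing notes; their versions and the build were not stated there. No unit is written in the table, and the deposited values were read as log2 signal from their range, -0.18 to 13.07. Symbols came from the platform annotation of each row and were updated through RefSeq (GRCm38.p6): 31261 rows had 1 symbol and 1489 several, which were not named. Named genes exclude predicted models and noncoding RNAs. The brightest row stood for a symbol, and counts use genes with a 2-array mean of at least 2.53, the median over all rows. Genes with differences of at least 2-fold were counted, with no test, because there is 1 array per genotype; precision is limited by that number. Where the dimmer value lay under its control limit the fold is a bound, and where both did no fold is given. The control limits and the use of unshared values were added after the data were seen. Alternatives were centring, loess (span 0.3, statsmodels 0.14.6), quantile normalization, the mean of all rows, a threshold of 1.5-fold, 2 other filters and other classes of the members. The functions were tested on simulated data. The members and lists were chosen with earlier results of these data known. In the text were named all members, up to the 3 highest and 3 lowest genes of each list, Il13ra1 and Pan3; Tnf, Ythdf1, Ythdf3 and the markers named were added after their values were seen.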

Additional observations from a re-analysis of the deposited data

How the results depend on the processing

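As deposited, 2 members were at least 2-fold higher. The count was 0 after centring, after loess and after quantile normalization, and 7 at a threshold of 1.5-fold, 4 of them with the control limits. It stayed at 2 with the mean of all rows, with either other filter and with the control limits. These settings could not change it. Each member has 1 row, all 8 passed the main filter, and Zfp36 and Hnrnpd lay above the stricter filter and both limits. The count of lower members was 0 under each alternative run. The median of the members was 0.55 after centring, 0.51 after loess and 0.60 after quantile normalization. It was 0.92 with a filter at the upper quartile, which keeps 6 members, and 0.92 over members with unshared values. Nothing is read from the decay-promoting median minus Elavl1, because Elavl1 lay under both control limits. This gap was -0.19 after loess, 0.058 after quantile normalization and 0.050 with Hnrnpd counted as decay-promoting. The other alternatives left it at 0.016 to 0.017. Of these, centring, the mean of all rows, the 1.5-fold threshold, no filter and leaving out Ythdf2 could not change it. The cause of the changes in the results above was not tested, beyond the shift that the scalings remove by construction. All 8 members, with Elavl1, Tia1 and Tial1 under both limits among them, stayed above 0 after centring, loess and quantile normalization. Khsrp after loess, at 0.0040, was barely so. The mean of all rows and the other filters leave the deposited difference of each kept member as it was. Of the 9 other lists, 2 had a median that turned sign: the kinases after loess (-0.12) and the targets after centring (-0.08) and loess. No paired analysis was possible because each genotype has 1 array. Signal against the negative controls limits what Elavl1, Tia1 and Tial1 can show.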
